A study of Homo sapiens with 24 samples.

Results

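Simultaneous inhibition of SYK and BET proteins was examined in DG-75, an established Burkitt lymphoma line. DG-75 cells had been kept for 72 h in 1 µM Entospletinib plus 0.01 µM AZD5153 (Ento+AZD) and were compared with DG-75 cells given the solvent DMSO for the same time (control). The members were all arrays labelled as DG-75 with both agents or with DMSO, 3 of each, so that 6 of the 24 arrays of the series were compared. DG-75 cells with 1 µM Ento alone or 0.01 µM AZD alone, 3 arrays each, and the Ento+AZD and DMSO arrays of the diffuse large B-cell lymphoma line SU-DHL-4 were used where a comparison needed them. The labels name no genetic change in any group. Each line is a single tumour-derived line, so that replicates are exposures of 1 line and not different tumours. Every array gave 25575 values, called rows here, for 25161 gene symbols on a log2 scale, where a difference of 1 stands for a 2-fold change.

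SYK is a kinase that relays signals from the B-cell receptor through PLCG2, BTK and PI3 kinase, and Ento inhibits it. BET proteins such as BRD2 and BRD3 bind acetylated chromatin and help RNA polymerase II to elongate, and AZD occupies both of their bromodomains. E2F factors drive the transcription of the genes for DNA replication and later for mitosis as cells pass through the cycle, and Burkitt lymphoma cells divide fast. FOXO factors are kept out of the nucleus by PI3 kinase signalling and act on genes of growth arrest and of lymphocyte trafficking.

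The array medians were 5.09, 5.05 and 5.14 under DMSO and 5.02, 5.03 and 4.97 under Ento+AZD, so that each Ento+AZD array lay a little under all DMSO arrays. Replicates correlated at 0.982 to 0.992 across rows, and the median SD of a row between replicates was 0.189 under DMSO and 0.211 under Ento+AZD. The 8 B-cell markers lay between 5.71 and 11.4 under DMSO and between 6.70 and 11.9 under Ento+AZD, with CD79A at 11.2 to 11.4 and PAX5 at 8.03 to 8.07 under DMSO. Of 6 markers of germinal centre cells and Burkitt lymphoma, 5 lay above the array medians in all DMSO arrays, BCL6, CD38 and MME among them, and SOX11 lay below at 4.04 to 4.16. Of 11 T-cell markers, 9 lay below the array medians in all DMSO arrays, with CD3G at 2.31 to 2.61, whereas CD5 (5.81 to 5.91) and CD7 (6.58 to 6.90) lay above. Of 5 plasma cell markers TNFRSF17 was called lower (-1.47), while IRF4 differed by -0.81 (adjusted p = 0.0403) and XBP1 by 0.67 (adjusted p = 0.0258), and their mean level was 5.70 to 5.91 in the DMSO arrays and 5.26 to 5.56 in the Ento+AZD arrays. None of the 11 T-cell, 7 NK-cell, 9 myeloid, 6 erythroid, 6 fibroblast or 5 epithelial markers measured was called, and HBA1, HBA2 and KRT8 were the highest of the erythroid and epithelial ones at up to 6.41 and 7.26 under DMSO.

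Ento+AZD lowered more transcripts than it raised in DG-75. A row was called at a Benjamini-Hochberg adjusted p under 0.05 in limma with a change of more than 2-fold, and by this rule 181 rows fell (0.708% of all rows) and 32 rose (0.125% of all rows). The 213 rows stood for 212 symbols, since PLCXD1 had 2 of them. Of these symbols, 84 were members of the 33 gene lists, 72 among the lowered and 12 among the raised ones. The lists held 873 distinct measured genes and were chosen with earlier results of these data known. Of the 84 symbols, 59 lowered and 0 raised ones belonged to the 13 lists for DNA replication, repair, the cell cycle and mitosis. The median change of the lowered rows was -1.19 and that of the raised rows 1.22, whereas the median over all rows was -0.07. More rows thus lay below 0 than above it, and counts of list members by sign are to be read against that. Counts of called list members are to be read against the shares of all rows called. In bulk RNA, fewer cells in a phase of the cycle and less RNA per cell cannot be told apart. The count rested on the arrays numbered 1. With either DMSO array 1 or Ento+AZD array 1 left out limma called 0 rows, when 2641 and 2857 rows still had an unadjusted p under 0.05. Omitting DMSO array 2 gave 82 calls, DMSO array 3 gave 47 and Ento+AZD array 2 gave 69, with 68, 41 and 51 symbols shared with the fit of all arrays. Omitting Ento+AZD array 3 gave 272 calls and 162 shared symbols. Raised rows made up 15.02% of the calls, and they made up 32.9% with quantile normalization of the table and 34.5% with array medians subtracted. These scalings gave 116 and 97 lowered and 57 and 51 raised rows. Without Ento+AZD array 2 there were 38 lowered and 31 raised rows (44.9%), and without the arrays numbered 2 of all groups 0 lowered and 3 raised.

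**Figure D1:**
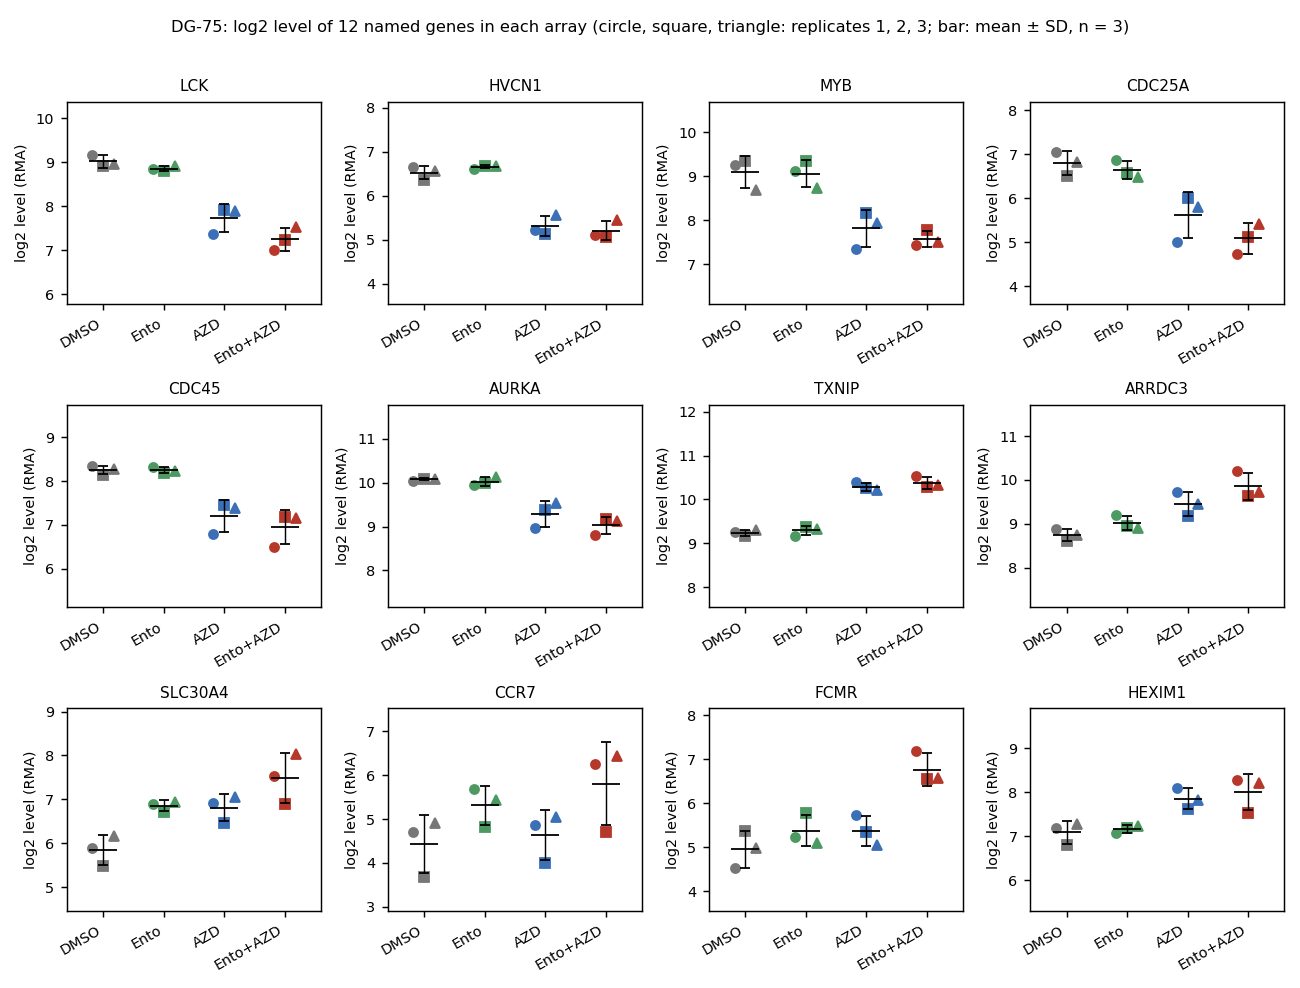
Log2 level (y axis, arbitrary array units on a log2 scale, each panel spanning the same range) of 12 genes in the 12 DG-75 arrays by treatment (x axis); symbols are single arrays and bars the mean ± SD. LCK, HVCN1, MYB, CDC25A, CDC45 and AURKA were lower in every Ento+AZD array than in any DMSO array, TXNIP, ARRDC3, SLC30A4 and FCMR were higher, and CCR7 overlapped, with Ento+AZD replicate 2 at 4.71.

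The genes of the drug targets themselves were not called. SYK stood at 8.76, 8.89 and 8.52 in DMSO arrays 1 to 3 and at 9.17, 8.98 and 9.02 in Ento+AZD arrays 1 to 3 (adjusted p = 0.278). BRD2 changed by 0.26 (adjusted p = 0.312) and BRD3 by 0.05 (adjusted p = 0.932), neither past the threshold. HEXIM1, an inhibitor of the elongation kinase P-TEFb, read 7.18, 6.79 and 7.28 under DMSO and 8.29, 7.54 and 8.20 under Ento+AZD. Its groups did not overlap and its difference of 0.93 had an adjusted p of 0.0226, but at 1.90-fold it stayed under the fold threshold. AZD alone gave HEXIM1 a difference of 0.77 and Ento alone one of 0.08. None of the 12 BET and P-TEFb genes was called, but HEXIM1 was with quantile normalization (1.08), array medians subtracted (1.01) or Ento+AZD array 2 left out (1.08).

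LCK, a SRC family kinase better known from T cells, fell most clearly. It stood at 9.18, 8.92 and 8.96 in DMSO arrays 1 to 3 and at 7.0, 7.22 and 7.52 in Ento+AZD arrays 1 to 3, a 3.41-fold fall with the smallest adjusted p of the comparison, 0.00698, shared with SLC30A4. Every Ento+AZD array read at least 1 log2 unit below the same-numbered DMSO array. LCK belonged to a list of 12 SRC family kinases and regulators with a median change of -0.34, in which LYN, BLK and FYN were not called. The mean level of the 11 T-cell markers was 3.86 to 3.95 in the DMSO arrays and 3.65 to 3.81 in the Ento+AZD arrays, and its part in the LCK result was not tested. The proton channel gene HVCN1, whose product associates with the B-cell receptor, fell by 1.32 (SE 0.139, adjusted p = 0.0101).

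Genes near the B-cell receptor were read as a list. Of 32 genes for SYK and proximal receptor signalling, only CD79B, a signalling chain of the receptor, was called. Over all rows 0.125% were called higher and 0.708% lower. CD79B read 9.03, 8.84 and 9.13 under DMSO and 10.3, 10.1 and 9.75 under Ento+AZD, a rise of 1.03 (adjusted p = 0.0227). The list held 2 called genes after quantile normalization and 0 with any 1 of DMSO arrays 1 to 3 or Ento+AZD arrays 1 and 2 left out. The mean level of the 8 B-cell markers was 8.26 to 8.51 in the DMSO arrays and 8.66 to 9.10 in the Ento+AZD arrays. Its part in the CD79B result was not tested. The list's median change was 0.03, that under AZD alone was 0.06 and that under Ento alone -0.01.

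MYC itself was not called under Ento+AZD. It stood at 10.0, 10.1 and 9.79 in DMSO arrays 1 to 3 and at 9.95, 9.87 and 9.71 in Ento+AZD arrays 1 to 3, so that the groups overlapped, and its difference was -0.14 (SE 0.121, adjusted p = 0.653). That difference was 0.02 after quantile normalization. Burkitt lymphoma typically carries MYC next to an immunoglobulin enhancer. The 23 nucleolar and growth genes linked to MYC held no called gene and had a median change of -0.21. In the MYC, MAX and MXD network, MXD4, which competes with MYC for MAX, was the sole called gene among 13 and rose by 1.03 (adjusted p = 0.0162). Of 34 regulators of the germinal centre and of plasma cells 0 were called, and BCL6, the germinal centre repressor, differed by -0.30 (adjusted p = 0.335).

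**Figure D2:**
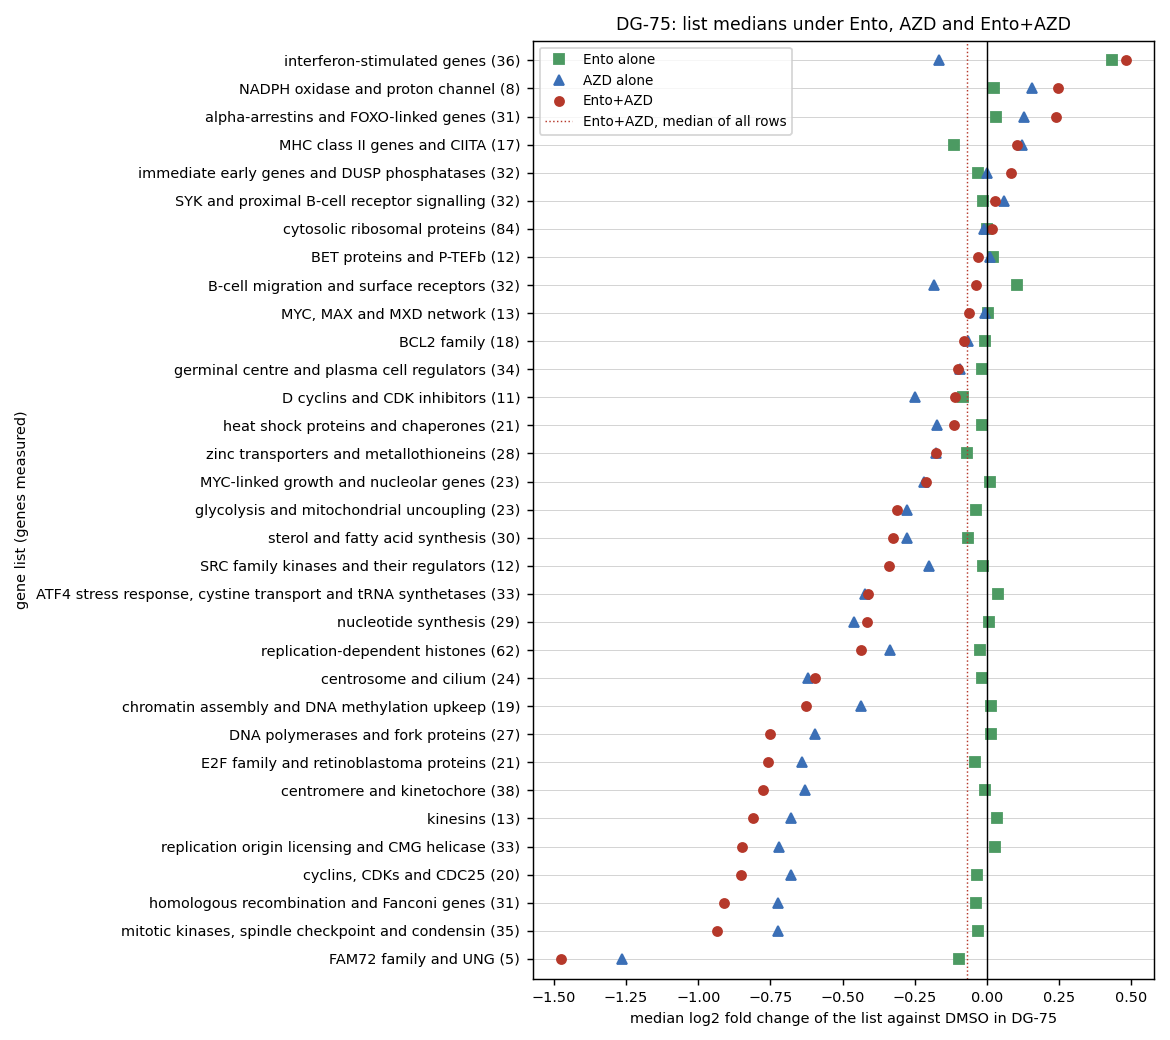
Median log2 fold change against DMSO in DG-75 (x axis) of each of the 33 gene lists (y axis, number of genes measured in parentheses) for Ento alone (squares), AZD alone (triangles) and Ento+AZD (circles); the dotted line is the median of all rows under Ento+AZD. The licensing, polymerase, recombination, kinetochore, kinesin, mitotic and centrosome lists lay between -0.60 and -0.93 under Ento+AZD and between -0.04 and 0.04 under Ento alone. The 3 comparisons share the DMSO arrays.

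Genes of the replication origins lay lower as a list. All 33 genes for origin licensing and the CMG helicase, which load and fire the replication origins, had a change below 0 (median -0.85). Of these, 21 had an adjusted p under 0.05 at any size of change. With the 2-fold minimum 11 were called lower and none higher. CDC45, which joins the MCM ring to form the active helicase, read 8.33, 8.14 and 8.28 in DMSO arrays 1 to 3 and 6.51, 7.18 and 7.16 in Ento+AZD arrays 1 to 3. The fall of CDC45 was 1.30 on the log2 scale (SE 0.193, adjusted p = 0.0162). ORC1, the origin recognition subunit that comes and goes with the cycle, fell by 1.04 and GINS1, a helicase partner, by 1.16 (adjusted p = 0.0163 and 0.0162). MCM4, MCM6, MCM10, GINS2, CDC7, MTBP, ORC6 and GMNN were the other called members. The mean level of the whole list was 8.31 to 8.52 in the DMSO arrays and 7.45 to 7.74 in the Ento+AZD arrays, with Ento+AZD replicate 1 the lowest. With the arrays scaled to equal quantiles or medians, 5 and 3 of these genes were called and the list's median was -0.73 and -0.76. None was called without DMSO replicate 1 or without Ento+AZD replicate 1, when the medians were -0.72 and -0.76.

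Behind the helicase, the polymerases and fork proteins showed a median change of -0.75 over 27 genes, and 2 of them were called. POLE2, the second subunit of the leading-strand polymerase, went from 8.27, 8.10 and 8.08 to 6.15, 6.41 and 6.98, a 3.11-fold fall (adjusted p = 0.0182). RFC3, part of the clamp loader, fell by 1.02. The 29 genes of nucleotide synthesis had a smaller median change of -0.42 and none was called, although RRM1 (-0.86), TYMS (-0.85) and DUT (-0.75) had adjusted p of 0.0221, 0.0244 and 0.0244. Of 62 replication-dependent histone genes, which are copied in S phase and lack poly(A) tails, H4C9 alone was called and fell by 1.21, and the list's median was -0.44. Histone genes of 1 cluster are near-identical, so that single values are uncertain. Chromatin assembly genes had a median change of -0.63 over 19 genes, with CHAF1B, a subunit of the assembly factor, called lower.

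Of 31 homologous recombination and Fanconi genes, which mend broken or stalled forks, 30 had a change below 0, with a median of -0.91. An adjusted p under 0.05 was reached by 15 of them, and 10 also passed the 2-fold minimum and were called lower. EXO1, a resection nuclease, read 9.68, 9.37 and 9.48 under DMSO and 7.46, 8.23 and 8.25 under Ento+AZD. Its groups did not overlap, and its fall was 1.53 (adjusted p = 0.0215). FANCD2, FANCI, BLM, CHEK1, XRCC2, RAD54B and RAD54L were among the others called lower. FAM72A, FAM72B, FAM72C and FAM72D fell by 1.34 to 1.63, and they are near-identical copies whose probes may read each other. FAM72A is known to bind the uracil glycosylase encoded by UNG, for which the difference was -0.88.

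Among the genes for transcription factors, MYB read 9.25, 9.34 and 8.68 in DMSO arrays 1 to 3 and 7.44, 7.78 and 7.5 in Ento+AZD arrays 1 to 3. MYB, a factor of immature and dividing blood cells, thus fell 2.86-fold (adjusted p = 0.0148). E2F8, a repressor that E2F factors themselves induce, fell by 1.68 (adjusted p = 0.0215), and E2F2, an activator, by 1.03 (adjusted p = 0.0215). With LIN9, a subunit of the complex that turns on mitotic genes, these were the 4 called genes of 21 in the E2F and retinoblastoma list, whose median was -0.76. CDC25A, the phosphatase that releases CDK2 at the start of S phase, went from 7.05, 6.51 and 6.83 to 4.72, 5.11 and 5.41. Its fall was 3.28-fold (adjusted p = 0.0176). CDK1, CCNA2, CDC25C, CKS1B and CDCA5 were the other called members of the 20 cyclins, CDKs and CDC25 genes (median -0.85). Among 11 D cyclins and CDK inhibitors CDKN3 was called lower, and CDKN1A and CDKN1B were not called.

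Promoter letters were read next to these changes. RefSeq windows from 250 bases before to 50 bases after the annotated start (GRCh38.p14) were held for 135 of the 180 lowered and 22 of the 32 raised symbols. E2F factors bind TTTCCCGC, TTTGGCGC, TTTCGCGC, TTTGCCGC and their reverse complements, and at least 1 of these strings stood in the windows of 22 of the 135 lowered genes (16.3%), in 867 of 17249 genes of the array (5.03%) and in 1090 of all 27305 genes with a window (3.99%). Taken singly, the strings were found in 10, 8, 5 and 1 of the lowered genes in that order, and a gene may hold several. None of the 22 raised genes held one. The upstream stretches of 5 lowered genes from different steps of the cycle follow so that the letters are seen in place, with E2F letters in capitals and the gene's strand read 5′ to 3′. They run to 36, 120, 78, 34 and 23 bases between the last capital and the start, in the order printed.
CDC25A, chr3:48188424-48188491, minus strand: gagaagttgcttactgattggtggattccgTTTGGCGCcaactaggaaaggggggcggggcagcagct
CDK1, chr10:60778320-60778387, plus strand: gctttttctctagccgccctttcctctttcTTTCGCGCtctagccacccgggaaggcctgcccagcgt
MCM6, chr2:135876492-135876625, minus strand: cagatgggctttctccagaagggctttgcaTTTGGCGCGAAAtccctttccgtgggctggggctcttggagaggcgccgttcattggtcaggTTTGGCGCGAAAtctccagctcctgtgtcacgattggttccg
E2F2, chr1:23531238-23531305, minus strand: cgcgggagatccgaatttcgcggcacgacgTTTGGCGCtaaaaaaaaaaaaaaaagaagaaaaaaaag
GINS2, chr16:85688955-85689015, minus strand: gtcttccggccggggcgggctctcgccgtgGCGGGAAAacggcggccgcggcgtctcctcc

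MCM6 holds 4 of the strings at 2 places, TTTGGCGC and GCGCGAAA overlapping at each, while the other 4 stretches hold 1 string each. The letters TTTGAA and TTCGAA, the core of the cell cycle homology region that mitotic promoters use, were in 43 of 135 lowered genes (31.9%) and in 17.6% of the array's genes. CCAAT was in 48.9% of the lowered genes and 41.7% of the array's, and the E-box CACGTG, which MYC and MAX bind, in 5.19% and 10.3%. These shares describe letters and were not tested, and genes with several starts have more windows in which to hold them.

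Mitotic genes lay lower as a list too. All 35 genes for mitotic kinases, the spindle checkpoint and condensin had a change below 0 (median -0.93). Of these, 26 had an adjusted p under 0.05 at any size of change. With the 2-fold minimum 9 were called lower, and 0 were called without DMSO or Ento+AZD replicate 1. AURKA, a centrosome kinase, was tight within groups, at 10.0, 10.1 and 10.1 under DMSO and 8.80, 9.16 and 9.12 under Ento+AZD (fall 1.05, adjusted p = 0.0162). PBK, a mitotic kinase, fell by 1.76, and MELK, ASPM, PRC1, UBE2C, PLK4, SMC2 and NCAPG2 by 1.0 to 1.31. KIF2C and KIF20A were the called genes of 13 kinesins, and NDC80, NUF2, CENPU, CENPW, CENPI and MIS18A those of 38 centromere and kinetochore genes, all of whose changes were below 0. Of 24 centrosome and cilium genes 6 were called, among them MNS1, a protein of sperm tails and cilia, which fell by 1.90 from 7.92, 8.0 and 7.30 to 5.70, 5.85 and 5.97. LRRCC1, a centrosome protein, fell by 1.77 (adjusted p = 0.0350). The mean level of the mitotic list was 9.01 to 9.15 under DMSO and 7.91 to 8.32 under Ento+AZD.

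**Figure D3:**
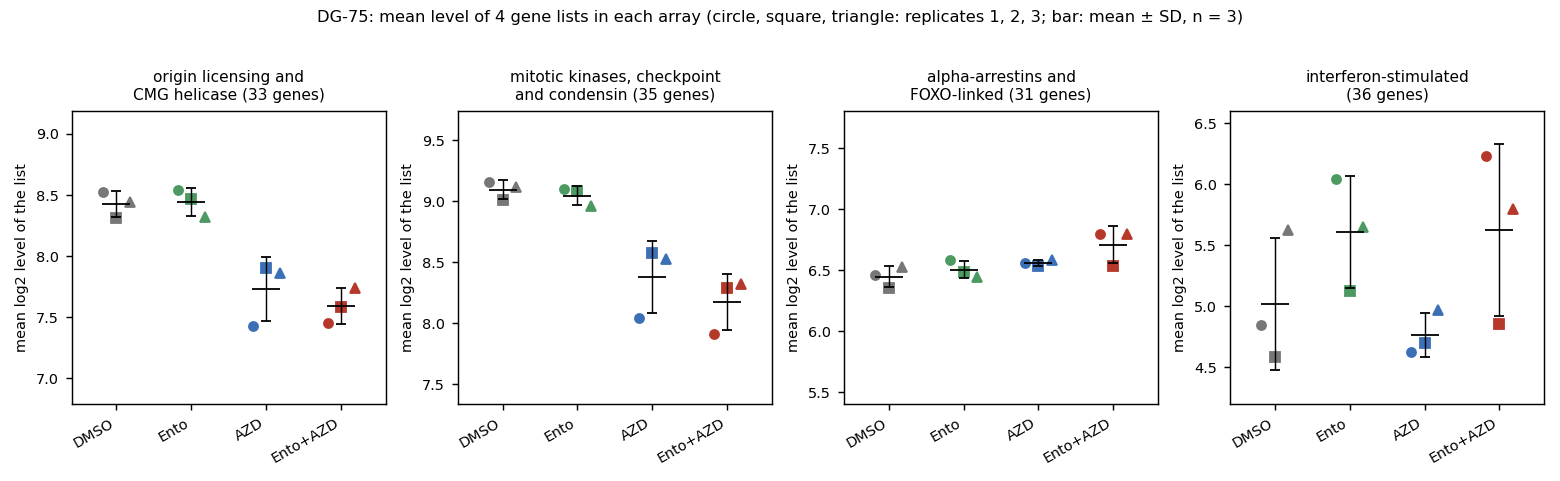
Mean log2 level (y axis, each panel spanning the same range) of 4 gene lists in each of the 12 DG-75 arrays by treatment (x axis); symbols are arrays and bars the mean ± SD. The licensing and mitotic lists were lower in all AZD and Ento+AZD arrays than in all DMSO and Ento arrays, while the interferon list overlapped between treatments.

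The rows with the largest falls held genes of several kinds. CHI3L2, a chitinase-like secreted protein, went from 8.83, 9.27 and 8.26 to 6.26, 5.64 and 6.71, a 5.99-fold fall (adjusted p = 0.0162). GAS2L3, a linker of actin and microtubules, fell by 2.25 and ETV1, an ETS factor, by 2.07, but Ento+AZD replicate 3 stood at 4.85 and 5.30 in them against 2.94 to 3.26 and 3.99 to 4.12 in the other two. IL7R, the interleukin-7 receptor of early lymphocytes, read 8.0, 7.81 and 7.66 under DMSO and 5.66, 5.75 and 6.28 under Ento+AZD (3.80-fold, adjusted p = 0.0215). The non-coding LINC02909 fell by 2.0. Surface proteins moved both ways. CD80, a costimulatory ligand, and TNFRSF17, a survival receptor of plasma cells, fell by 1.48 and 1.47, while CCR7, CD40 and S1PR1 of the same list were called higher. In the list of stress response and amino acid genes, SLC7A11, the cystine transporter, went from 8.49, 8.43 and 8.56 to 7.24, 7.48 and 7.28, a fall of 1.16 (adjusted p = 0.0187), and VLDLR, a lipoprotein receptor, fell by 1.12. FADS2, a fatty acid desaturase, was the sole called gene of 30 in sterol and fatty acid synthesis.

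Among the raised genes, TXNIP and ARRDC3 are alpha-arrestins, which restrain glucose uptake or surface receptors. TXNIP read 9.25, 9.17 and 9.30 in DMSO arrays 1 to 3 and 10.5, 10.3 and 10.3 in Ento+AZD arrays 1 to 3, a 2.21-fold rise (adjusted p = 0.0115). ARRDC3 read 8.88, 8.61 and 8.74 against 10.2, 9.63 and 9.73, a 2.17-fold rise with the same adjusted p. SESN3, an mTORC1 inhibitor and FOXO target, rose by 1.59 and S1PR1, the receptor by which lymphocytes leave tissues, by 1.34. With IL7R lower, 5 of 31 genes of the alpha-arrestin and FOXO-linked list were called, and 25 of the 31 had a change above 0 (median 0.24). Over all rows the median was -0.07, and 0.125% were called higher and 0.708% lower. The list's mean was 6.36 to 6.52 in the DMSO arrays and 6.53 to 6.80 in the Ento+AZD arrays. TP53INP1, a stress gene that p53 induces, rose by 1.44, from 6.76, 6.85 and 7.06 to 8.54, 7.65 and 8.79.

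GTAAACA or its reverse complement TGTTTAC, the letters that FOXO factors bind, stood in the windows of 4 of the 22 raised genes (18.2%), against 3 of 135 lowered genes (2.22%) and 3.91% of the genes on the array. TXNIP and ARRDC3 hold them 117 and 22 bases before the start and are printed with these letters in capitals, because they were the raised genes of the FOXO-linked list with the smallest p.
TXNIP, chr1:145996667-145996733, minus strand: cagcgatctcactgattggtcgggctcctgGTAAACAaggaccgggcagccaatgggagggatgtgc
ARRDC3, chr5:91380098-91380156, minus strand: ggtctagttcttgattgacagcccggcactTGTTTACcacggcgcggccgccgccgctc

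GRAMD1C and LINC01341 were the other raised genes with these letters. CACGTG was present in 2 of the raised genes, CLBA1 and MXD4 (9.09%). CCAAT was in 45.5% of the raised genes and the cell cycle homology letters in 18.2%.

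Further raised genes were those of the zinc transporter SLC30A4 and of lymphocyte surface proteins. SLC30A4 went from 5.89, 5.48 and 6.16 to 7.53, 6.91 and 8.04, a 3.14-fold rise (adjusted p = 0.00698), and was the sole called gene of 28 for zinc transport and metallothioneins. CEMIP2, a surface hyaluronidase, rose 3.74-fold from 4.57, 3.73 and 5.04 to 6.55, 6.06 and 6.45. FCMR, the receptor for IgM, read 4.52, 5.36 and 4.99 under DMSO and 7.19, 6.54 and 6.57 under Ento+AZD, with no overlap (3.50-fold, adjusted p = 0.0162). CD69, an early activation antigen that holds back S1PR1, rose by 1.66, CD40, the receptor for T-cell help, by 1.04, and VPREB3, which binds newly made immunoglobulin chains, by 1.27. CCR7, the chemokine receptor for homing to lymph nodes, read 4.71, 3.69 and 4.9 under DMSO and 6.26, 4.71 and 6.43 under Ento+AZD. Its groups overlapped because replicate 2 was the lowest in both, while each same-numbered difference was above 1 (rise 1.37, adjusted p = 0.0162). The call rested on the replicate numbers, which were not shown to pair the arrays, since without them in the fit CCR7 had an adjusted p of 0.125, VPREB3 one of 0.120 and GRAMD1C one of 0.0653. Of the 17 MHC class II genes none was called, though HLA-DMB (0.79) and HLA-DOB (0.62) had adjusted p of 0.0281 and 0.0440.

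Interferon-stimulated genes varied between replicate numbers as much as between treatments. The mean level of 36 such genes was 4.84, 4.58 and 5.62 in DMSO arrays 1 to 3 and 6.23, 4.86 and 5.80 in Ento+AZD arrays 1 to 3. Ento alone gave 6.04, 5.13 and 5.65 and AZD alone 4.63, 4.70 and 4.97, so that Ento+AZD overlapped with each of the other arms. The list's median change was 0.48 and 31 of 36 genes lay above 0, yet only PARP14 and OAS1 were called. With a single DMSO or Ento+AZD array left out, that median ran from 0.30 (Ento+AZD array 1) to 0.65 (DMSO array 3). It was 0.21 without the arrays numbered 1. OAS1, an antiviral sensor of double-stranded RNA, went from 6.6, 6.62 and 7.89 to 9.21, 7.59 and 8.78, with overlap and an adjusted p of 0.0493, and Ento alone gave it 8.92, 7.72 and 8.86. IFI44L had the largest difference in the list, 2.74, with an adjusted p above the threshold, and the list held no call in the fit without replicate numbers. The 84 ribosomal protein genes, in contrast, had a median change of 0.02 with none called, and none of 18 BCL2 family or 21 heat shock genes was called.

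The next question was what each agent contributed. Against Ento alone, Ento+AZD gave 168 called rows (0.657% of all rows), 15 higher and 153 lower, and this comparison shares its Ento+AZD arrays with that against DMSO. CDC45 was lower than under Ento by 1.30 (adjusted p = 0.0199), whereas SLC30A4 differed by 0.64 (adjusted p = 0.0784) and OAS1 by 0.03 (adjusted p = 0.986). Omitting array 1 of Ento or of Ento+AZD gave 0 calls here too, omitting array 2 gave 1 and 4, and omitting Ento array 3 gave 389. It was 0 when only the Ento and Ento+AZD arrays were fitted.

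Against AZD alone, limma called 0 rows (0% of all rows), and 1030 had an unadjusted p under 0.05. A call missed does not show equal levels. LCK was lower than under AZD by 0.48, with a 95% confidence interval of -0.86 to -0.10, CDC45 by 0.27 (-0.69 to 0.16) and MYB by 0.24 (-0.67 to 0.19), while TXNIP differed by 0.10 (-0.20 to 0.39). Among the genes named by the rule given below, which leaves out IFI44L, the largest differences were those of GRAMD1C, FCMR, OAS1 and CCR7. They were 1.47 (interval 0.70 to 2.24), 1.39 (0.83 to 1.96), 1.2 (0.44 to 1.95) and 1.16 (0.75 to 1.57) in that order. All had adjusted p of 0.941 or above. These intervals are not adjusted for the number of rows. The genes had been called against DMSO with the same Ento+AZD arrays, so that this choice bears on the size of their differences here. FCMR stood at 5.24, 5.78 and 5.1 under Ento and at 5.73, 5.35 and 5.05 under AZD, so that each Ento+AZD array was above all of these. CCR7 read 5.67, 4.82 and 5.44 under Ento and 4.86, 4.0 and 5.05 under AZD, and its Ento+AZD arrays overlapped with both arms. IL7R stood at 4.59, 6.22 and 6.27 under AZD alone, with 1 array below its Ento+AZD values and 2 within their range.

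Side by side, the rows lowered by Ento+AZD had a median change of -1.01 under AZD alone and of -0.09 under Ento alone, and the raised rows of 0.72 and 0.29. These comparisons share the DMSO arrays, and the rows were chosen by the Ento+AZD arrays, so that this choice bears on which medians are larger. The origin licensing list had medians of -0.72 under AZD and 0.03 under Ento, the mitotic list -0.72 and -0.03, and the interferon list -0.17 and 0.44.

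SU-DHL-4 arrays, which hold other cells but were normalized in the same table and carry the same replicate numbers, were read for the same genes. Of the 181 rows lowered in DG-75, 166 were below 0 in SU-DHL-4 under Ento+AZD (median -0.95), where 64.0% of all rows were, and 80 were called lower there as well, against 1.09% of all rows. Of the 32 raised rows, 26 were above 0 (median 0.34), against 35.98% of all rows, and 1 was called higher there, against 0.102% of all rows. The origin licensing list had a median of -0.94 and the mitotic list of -1.08 in SU-DHL-4. The alpha-arrestin and FOXO-linked list had a median of 0.01 there and TXNIP a change of 0.01, yet its difference between lines of 1.13 was not called (adjusted p = 0.141). Nor was that of GAS2L3 or ETV1, with changes of -0.03 and 0.14 in SU-DHL-4 (adjusted p = 0.128 and 0.127).

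**Figure D4:**
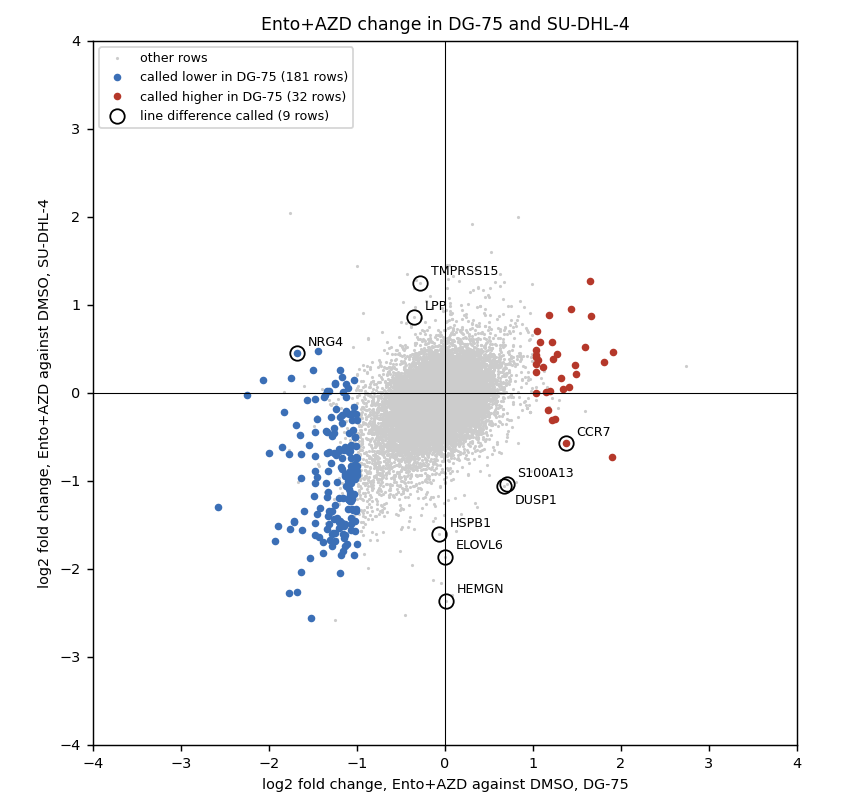
Log2 fold change of each row under Ento+AZD against DMSO in DG-75 (x axis) and in SU-DHL-4 (y axis); filled points are rows called in DG-75, rings the 9 rows whose change differed between lines, grey points all other rows. Most rows lowered in DG-75 lay below 0 in SU-DHL-4 too, 166 of 181.

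The difference between the lines in the Ento+AZD change was called for 9 rows (0.0352% of all rows). Of the genes called in DG-75, 2 were among them. NRG4, an ErbB4 ligand, went from 8.32, 8.32 and 8.14 to 6.18, 6.59 and 6.95 in DG-75, whereas in SU-DHL-4 it was low at 1.90, 2.16 and 1.72 under DMSO and 2.65, 2.46 and 2.02 under Ento+AZD. CCR7, raised in DG-75, read 4.56, 4.24 and 4.60 under DMSO and 3.85, 4.03 and 3.80 under Ento+AZD in SU-DHL-4. The change in DG-75 minus that in SU-DHL-4 was -2.14 for NRG4 and 1.94 for CCR7 (both adjusted p = 0.0126). Only 1 row was called in the fit without replicate numbers, with a difference below 0, so that CCR7 was not called there. Omitting array 1 or 3 of the DMSO group of DG-75, or array 1 of its Ento+AZD group, left none.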

How the data were processed

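RNA of DG-75 and SU-DHL-4 cells was hybridised to Clariom D human arrays, and the authors deposited 1 table of log2 expression values for 24 arrays. Per the methods these were normalized by RMA with limma, and genes were assigned to probes by affycoretools from a Clariom D annotation package. Versions and genome build are not given in the sources used here. RMA scales arrays to each other, so changes are relative, but array medians still differed in the deposited table. Low values cannot be split into expressed and not expressed. The deposited log2 values had no background value per gene. The number of arrays limits the precision.

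Groups and replicate numbers came from the labels, and the series' design text names biological triplicates. limma 3.58.1 in R 4.3.3 (lmFit, contrasts.fit, eBayes) was fitted to the 12 DG-75 arrays with 4 treatments and replicate number as a block (the study's model has a batch term that its methods do not define, and replicate number was taken for it here), and, for the difference between lines, to all 24 with replicate numbers nested in lines. Benjamini-Hochberg adjustment covered all 25575 rows, calls needed an adjusted p under 0.05 and a change of more than 2-fold, and SD refers to n = 3. A symbol with several rows is represented by the row with the highest mean.

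Named genes were the 15 called genes per direction with the smallest p and 3 same-numbered differences of 1 sign, the 5 per direction with the largest change, SYK, BRD2, BRD3, HEXIM1, MYC and BCL6, called members of the gene lists or, in a list without any, up to 3 with the smallest p, genes called between lines, and cell type markers. IFI44L, UNG, LYN, BLK, FYN, CDKN1A, CDKN1B and LINC01341 are named outside this rule, after their values were seen. Members and lists were chosen with earlier results of these data known. All 212 called symbols were current names in a RefSeq table, and promoter letters came from RefSeq windows. Some genes are not reported here. Python 3.11.15 with pandas 2.3.3 and matplotlib 3.10.9 made lists and figures. Alternatives were other scalings, filters, prior variances, arrays in the fit, call rules, and leaving out arrays.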

Additional observations from a re-analysis of the deposited data

Results flagged for a closer look

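The change under Ento+AZD differed between the lines, by the test of that difference, in 9 genes. These calls rested on the replicate numbers in the fit. Without them 0 rows with a difference above 0 and 1 below 0 were called. With DMSO array 1 or 3 or Ento+AZD array 1 of DG-75 left out, the count was 0. Differences are the log2 change in DG-75 minus that in SU-DHL-4. In HEMGN the difference was 2.37 (adjusted p = 0.0126), in ELOVL6 1.86 (adjusted p = 0.0168) and in HSPB1 1.54 (adjusted p = 0.0226). These 3 genes changed by 0.01, -0.01 and -0.06 in DG-75 and by -2.36, -1.86 and -1.61 in SU-DHL-4. HEMGN, a nuclear protein of blood progenitors, lay at 2.11 to 2.48 in all 6 DG-75 arrays. CCR7 (1.94), DUSP1, a MAP kinase phosphatase (1.74), and S100A13, a calcium-binding protein (1.74), had adjusted p of 0.0126, with changes of 1.37, 0.67 and 0.70 in DG-75 and -0.57, -1.06 and -1.04 in SU-DHL-4. NRG4 (-2.14, adjusted p = 0.0126), TMPRSS15 (-1.54, adjusted p = 0.0126) and LPP, a focal adhesion protein (-1.21, adjusted p = 0.0376), differed the other way. TMPRSS15 stood at 1.80 to 2.54 in the DG-75 arrays, and only NRG4 and CCR7 of the 9 genes were called in DG-75.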

How the results depend on the processing

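For Ento+AZD against DMSO, 57 rows were higher and 116 lower after quantile normalization, 51 and 97 after subtraction of array medians, 132 and 479 of 611 without a fold minimum, and 5 and 9 of 14 by limma's treat against a 1.2-fold change. Leaving out arrays gave 0 to 272 calls, 0 to 33 of them higher and 0 to 239 lower. For Ento+AZD against Ento the count was 0 with only the compared arrays, 103 with array medians subtracted, 424 without a fold minimum, 4 by treat and 0 to 389 with arrays left out. Against AZD it was 0 throughout. The difference between lines gave 5 rows without low-expressed genes, 32 with a trended robust prior, 3 by treat and 0 to 18 with arrays left out. MYC moved to 0.0161 after quantile normalization, and BRD3 ranged from -0.0707 to 0.134 with arrays left out. Neither was called. The causes were not tested. List medians turned above 0 under a scaling for the BET, MYC, BCL2, migration, germinal centre and heat shock lists. Of 755 values of 40 named genes in these settings, 546 stayed on their side of the threshold, 202 lost and 4 gained the call, and 3 turned sign. LCK, HVCN1, MYB, SLC30A4 and CEMIP2 were called in 5 of 9 fits with arrays left out, TXNIP, ARRDC3, CCR7, FCMR and AURKA in 4, IL7R, ETV1 and GRAMD1C in 1.

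The replicate numbers were not shown to pair the arrays. In DG-75, same-numbered arrays had deviations from their group means that correlated over 0.1 in 7 of 18 pairs (-0.35 to 0.34), and at 0.04, 0.34 and 0.30 for DMSO with Ento+AZD. With no replicate block the counts were 208 against DMSO (26 higher, 182 lower, 191 symbols shared), 172 against Ento and 1 between lines.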
